A study of Mus musculus with 10 samples.

Results

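Hearts of 3-month-old mice labelled Prdm16 knockout were compared with hearts of control mice of the same age by RNA sequencing. The genes described are those whose mean over the 6 libraries was at least 1 FPKM (a count of sequenced fragments scaled to gene length and to library size), after rows with the same gene identifier had been summed. They numbered 12200 of the 46786 genes in the 3-month table. At that limit BC025920 and Tfap4 (1.0 FPKM each) were taken in, and Pycr1, which averaged 0.99994 FPKM, was left out.

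The series title concerns a cardiac phenotype that depends on age, and its 10 mouse heart libraries cover 3 and 12 months. The younger age has 3 libraries per label, made from dissected hearts as strand-specific poly(A) libraries, per the labels. Both groups share tissue and age and differ in the genotype label. The sources used here give neither strain, sex, Prdm16 allele and Cre driver, nor whether each library came from its own animal, so the p-values speak only to the spread among these 6 libraries, which may be technical.

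PRDM16 is a zinc-finger transcriptional regulator with a PR domain, known for specifying brown fat and, in the heart, for its part in the compact wall of the ventricle and in cardiomyopathy when it is lost. Stressed heart muscle is known to turn up genes of the fetal and atrial programme, such as the natriuretic peptides, which are hormones that lower blood pressure and volume. Mitochondrial stress is known to act through the transcription factors ATF4 and ATF5, which raise enzymes of serine, folate and amino acid synthesis.

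Prdm16 itself stood at 1.44, 2.23 and 1.61 FPKM in the controls against 1.43, 0.760 and 2.03 FPKM in the knockout-labelled libraries. The ranges overlapped, and both the lowest and the next to highest value were in knockout-labelled libraries (limma difference −0.22 on the log2 scale, exact two-sided permutation p = 0.4, where 0.1 is the smallest p that 3 against 3 libraries allow). A value for the whole gene also counts exons that a deletion may leave in place, so this checks the labels weakly, and directions below refer to libraries as labelled. Without control replicate 2 and knockout replicate 2 the Prdm16 difference was 0.11, in the other direction (limma adjusted p = 0.790).

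Summed FPKM ran from 516272 to 718787 per library, and depth is unknown, since no assumed number of reads made more than 34.0% of the low values of a 3-month library whole to 0.05 reads. Control replicate 2 and knockout replicate 2 stood apart at opposite ends of the first principal component (−32.3 and 38.9, 47.5% of the variance, against −8.4 to 6.0 for the other 4). The controls all lay below 0 on this component and the knockout-labelled libraries all above 0. The robust SD of the log2 ratio was 0.145 between knockout replicates 1 and 3 and 0.505 between the 2 outlying libraries, control replicate 2 and knockout replicate 2. Among the controls it was 0.286 (replicates 1 and 2), 0.243 (1 and 3) and 0.233 (2 and 3). Genes of the mitochondrial genome made up 36.1%, 17.3% and 42.0% of FPKM in the controls and 24.9%, 23.8% and 24.0% in the knockout-labelled libraries. Some zeros may be failed estimates. mt-Co1 and mt-Cytb were listed at 0 in all 6 libraries. mt-Nd1 was at 0 in control replicate 2 and knockout replicates 1 and 3, against 68462 to 86970 FPKM elsewhere. mt-Nd2, mt-Nd5 and mt-Nd6 were at 0 in control replicate 2 only. So was the calcium release channel gene Ryr2, against 20.7 to 29.1 FPKM elsewhere. The mitochondrial zeros enter the shares above and the summed FPKM, by which the TPM rescaling below divides. The 14 cardiomyocyte markers summed to between 42198 and 51804 FPKM in controls and between 54035 and 57181 FPKM in the knockout-labelled libraries, which fits the labelled tissue, and sex-linked genes did not separate the labels (6 tested, median difference −0.01).

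Between the labels, 91 of the 12200 genes (0.746%) passed the test (limma on log2(FPKM + 1), Benjamini-Hochberg adjusted p under 0.05), and these are the genes said below to have risen or fallen. Differences were above 0 in 7936 genes (65.0%). Of the calls 76 rose (0.623% of genes tested) and 15 fell (0.123%). The rises had a median log2 difference of 1.15 and the falls of −1.10, and 50 of the rises and 11 of the falls went past 1 log2 unit. Among all tested genes 118 lay above 1 and 27 below −1, so most of the large differences did not pass. At an unadjusted p under 0.05 there were 2224 genes (18.2%). Median-of-ratios rescaling, which brought the median of all differences from 0.09 to 0.00, gave 42 rises and 17 falls, that is 71.2% higher against 83.5%. Rescaling to TPM (FPKM divided by its sum in the library) gave 106 rises and 28 falls. The 2 labels are called apart where every library of one lay above every library of the other, which held for 3009 genes (24.7%). All differences below use log2(FPKM + 1), where the added 1 shrinks the changes of low genes, and 33 of the 91 averaged under 5 FPKM.

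**Figure D1:**
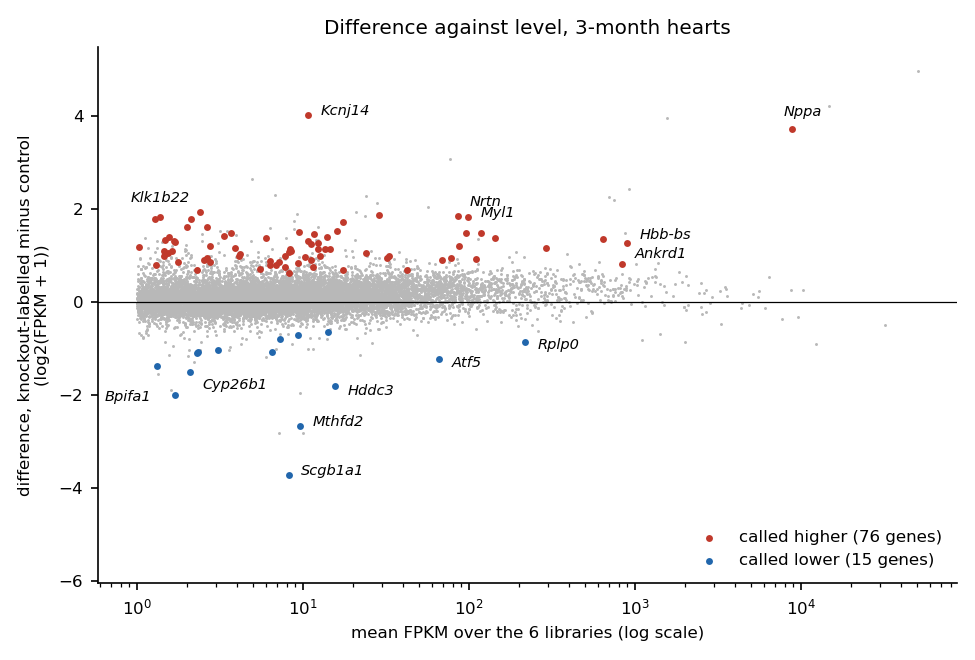
Each point is 1 of the 12200 tested genes, with its mean FPKM over the 6 libraries on a log axis and its difference, knockout-labelled minus control, on the log2(FPKM + 1) scale; red and blue mark the 76 genes called higher and the 15 called lower. Kcnj14 and Nppa stand at the top and Scgb1a1 and Mthfd2 at the bottom of the calls, and most calls lie between 1 and 2 log2 units from 0.

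The number of calls rested on single libraries. Leaving out control replicate 2 left 22 calls, all among the 91, leaving out control replicate 3 left 29, and leaving out both outlying libraries left 22, of which 20 were among the 91. In 14 genes the call held whichever of the 6 libraries was left out: the rises of Kcnj14, Klk1b22, Ush1c, Lrrc4b, Vps45 and the pseudogenes Gm9493, Gm6166 and Rps2-ps6, and the falls of Mthfd2, Hddc3, Cyp26b1, Cdk5rap1, Atf5 and Scgb1a1. Knockout replicate 2 was the highest knockout-labelled library in 49 of the 76 rises (64.5%), near its share of 67.1% among all 7936 tested genes with a difference above 0.

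Kcnj14 showed the largest change of all calls. It encodes an inward rectifier potassium channel subunit, a channel that passes potassium more easily into the cell than out of it, and lies on chromosome 7 from 45816460 to 45824782 (minus strand, GRCm38). Its level was 0.328, 0.525 and 0.232 FPKM in the controls against 21.1, 22.0 and 20.1 FPKM in the knockout-labelled libraries, so the groups were far apart and each was tight. The mean was 58.2-fold higher in the knockout-labelled libraries (log2 4.02, SE 0.12, limma adjusted p = 2.17e-06, Benjamini-Hochberg). The call held under all 17 alternatives run, with the log2 difference between 2.28 and 5.57.

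No other potassium channel gene of the 23 tested passed, and 14 lay above 0 and 9 below, with a median of 0.14 beside 0.09 for all genes. Kcnj11, the pore of the ATP-sensitive potassium channel and a close neighbour of Kcnj14 in the genome, stood at 26.2, 38.7 and 25.9 FPKM in the controls against 14.3, 7.52 and 20.3 FPKM in the knockout-labelled libraries. All 3 knockout-labelled values were below all controls, with knockout replicate 2 lowest, and the difference did not pass (log2 −1.13, SE 0.31, limma adjusted p = 0.142). Abcc9, the sulphonylurea receptor that pairs with that pore, was also lower in all 3 (−0.48, limma adjusted p = 0.225), while Kcnh2, a delayed rectifier, was higher in all 3 (0.58, limma adjusted p = 0.168). Of the 22 sodium channel and conduction genes (16 above 0, median 0.13, and −0.01 after TPM rescaling), Cntn2, a cell adhesion molecule that marks the Purkinje conduction system, rose. It stood at 1.21, 1.39 and 1.42 FPKM in the controls against 3.91, 7.19 and 5.08 FPKM in the knockout-labelled libraries, with every knockout-labelled value above every control (log2 1.42, SE 0.18, limma adjusted p = 0.0124). The call was lost without control replicate 2 (0.0960) or control replicate 3 (0.0716), limma adjusted p in brackets.

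Mthfd2 showed the next largest fall after the airway gene Scgb1a1. The enzyme it encodes oxidises folate-bound carbon units in mitochondria and is known as a target of ATF4. It lies on chromosome 6 from 83305691 to 83325908 (minus strand, GRCm38), and its level was 19.1, 20.2 and 12.9 FPKM in the controls against 1.76, 2.56 and 1.42 FPKM in the knockout-labelled libraries (log2 −2.65, SE 0.20, limma adjusted p = 0.000982, Benjamini-Hochberg). The lowest control was over 5 times the highest knockout-labelled value, and the call held under all 17 alternatives. Atf5, a transcription factor of the mitochondrial unfolded protein response, lies on chromosome 7 from 44812256 to 44816658 (minus strand) and stood at 92.0, 108 and 80.2 FPKM in the controls against 39.2, 37.9 and 40.8 FPKM in the knockout-labelled libraries. The knockout-labelled values were close together and far below the lowest control (log2 −1.22, SE 0.14, limma adjusted p = 0.00892). The Atf5 call held without any 1 library and was lost with no filter and without control replicate 2 and knockout replicate 2 together. Il4i1 overlaps Atf5 on the opposite strand, and the sources used here do not say whether the counting used strand.

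Around these falls, most of the enzymes and stress genes did not pass. Of 19 mitochondrial folate and serine enzymes tested, Mthfd2 fell and none rose, with 6 above 0 and 13 below and a median of −0.09, which became 0.06 without the 2 outlying libraries. Phgdh, which starts serine synthesis, stood at 1.60, 1.52 and 1.69 FPKM in the controls against 0.367, 1.0 and 0.358 FPKM in the knockout-labelled libraries (log2 −0.75, SE 0.17, limma adjusted p = 0.10), and Aldh1l2, a mitochondrial folate dehydrogenase, at 2.08, 2.65 and 2.02 FPKM in the controls against 1.01, 1.29 and 1.41 FPKM in the knockout-labelled libraries (log2 −0.54, SE 0.14, limma adjusted p = 0.124). In both genes every knockout-labelled value lay below every control. Mthfd2l, the close relative of Mthfd2, was higher in all 3 knockout-labelled libraries (log2 0.48, SE 0.13, limma adjusted p = 0.142). Of 34 genes of the integrated stress response tested, Atf5 fell and none rose, with 14 above 0 and 20 below (median −0.10, and −0.23 and −0.19 after TPM and median-of-ratios rescaling). Groups were apart downwards in 7 of these 34 (20.6%) and upwards in 4 (11.8%), where 4.60% and 20.1% of all tested genes were.

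Asns, which makes asparagine, Aldh18a1, which makes a proline precursor, Cebpg, a partner of ATF4, and Trib3, a pseudokinase that ATF4 induces, were among those lower in all 3 knockout-labelled libraries. Asns stood at 4.65, 3.63 and 2.38 FPKM in the controls against 0.682, 1.67 and 1.34 FPKM in the knockout-labelled libraries (log2 −1.02, SE 0.23, limma adjusted p = 0.0906). Aldh18a1 gave −0.53, Cebpg −0.36 and Trib3 −0.34 (limma adjusted p = 0.109, 0.182 and 0.197). Vldlr, Gars and Nupr1 did not separate the labels. None of these passed.

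The promoter windows of Mthfd2 and Asns are shown because both genes were low in the same 3 libraries and differ in the element that the ATF4 factor binds with a C/EBP partner. Each window runs from 250 bases before to 50 bases after the RefSeq start (GRCm38.p6, minus strand, Mthfd2 at chr6:83317555-83317854 and Asns at chr6:7693160-7693459). Capitals mark a match to the element TGATGNAA, searched on both strands.
Mthfd2: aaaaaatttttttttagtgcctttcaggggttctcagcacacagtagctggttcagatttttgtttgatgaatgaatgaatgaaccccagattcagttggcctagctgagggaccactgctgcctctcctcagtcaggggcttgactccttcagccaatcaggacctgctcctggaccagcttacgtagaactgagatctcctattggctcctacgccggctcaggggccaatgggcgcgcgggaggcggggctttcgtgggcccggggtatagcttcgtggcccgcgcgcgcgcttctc
Asns: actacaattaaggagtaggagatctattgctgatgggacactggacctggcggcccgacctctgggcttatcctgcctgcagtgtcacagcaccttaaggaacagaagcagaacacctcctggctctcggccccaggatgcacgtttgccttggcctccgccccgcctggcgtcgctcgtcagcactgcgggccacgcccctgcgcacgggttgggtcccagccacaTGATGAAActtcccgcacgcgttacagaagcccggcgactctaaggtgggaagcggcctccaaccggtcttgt
The RefSeq start of Mthfd2 lies inside the gene span of the annotation used here. In Asns the match lay 23 bases before the start. Neither Mthfd2 nor either window of Atf5 held one. Among integrated stress response genes with a window, 7 of 28 held the element, namely Asns, Atf3, Chac1, Gars, Nupr1, Trib3 and Vldlr, beside 2.71% of the 8747 tested genes with a window and 4.51% of all 27025 genes with a window. Of these 7, Asns, Chac1 and Trib3 had groups apart downwards (4.60% of all tested genes had) and the other 4 overlapped, with Atf3 at 0.32 and Nupr1 at 0.33. Among aminoacyl-tRNA synthetases with a window, 5 of 26 held the element (19.2%). In that list 0 of 37 tested genes passed, with a median of 0.01. None of the 13 fallen genes with a window held the element, and among the risen genes 2 of 47 did, Car11 and Cntn2. A match is a run of letters and does not show a bound site.

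Hddc3 gave the second lowest adjusted p. It encodes a hydrolase related to bacterial enzymes that break down the alarmone ppGpp, and lies on chromosome 7 from 80343104 to 80350547 (plus strand). Its level was 24.3, 25.2 and 25.3 FPKM in the controls against 6.43, 6.32 and 6.43 FPKM in the knockout-labelled libraries, with no overlap and very little spread within either label (log2 −1.81, SE 0.10, limma adjusted p = 0.000240, Benjamini-Hochberg). The call held under all 17 alternatives. Man2a2 overlaps it on the opposite strand. Cdk5rap1, which modifies mitochondrial transfer RNAs, stood at 9.41, 9.90 and 8.30 FPKM in the controls against 3.55, 3.90 and 4.08 FPKM in the knockout-labelled libraries (log2 −1.07, SE 0.12, limma adjusted p = 0.00882), again with the groups apart, and the call held without any 1 library and was lost with control replicate 2 and knockout replicate 2 both out and with no filter. The other 33 tested genes of mitochondrial RNA modification and translation did not pass (list median 0.01).

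Cyp26b1, the enzyme that clears retinoic acid, stood at 2.81, 4.55 and 3.35 FPKM in the controls against 0.632, 0.561 and 0.577 FPKM in the knockout-labelled libraries. The knockout-labelled values lay close together and more than 4 times lower than the lowest control (log2 −1.51, SE 0.16, limma adjusted p = 0.00697). The call was lost only with no filter. None of the other 14 retinoic acid genes tested passed. Aldh1a2, which makes retinoic acid, gave 0.28 and Dhrs3, which limits it, gave −0.21 (limma adjusted p = 0.338 and 0.419).

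Ephb1, a receptor for ephrin-B ligands, stood at 3.29, 4.63 and 2.69 FPKM in the controls against 1.16, 1.08 and 1.04 FPKM in the knockout-labelled libraries (log2 −1.10, SE 0.16, limma adjusted p = 0.0228), and the call was lost without control replicate 1 (0.0570), control replicate 2 (0.0890), control replicate 3 (0.050), knockout replicate 2 (0.0544) or knockout replicate 3 (0.0582). Its ligand Efnb3 was lower in all 3 knockout-labelled libraries without passing (log2 −0.77, SE 0.16, limma adjusted p = 0.0722). Epha4, a receptor of the same family, rose, at 4.14, 4.96 and 5.92 FPKM in the controls against 10.3, 12.5 and 13.1 FPKM in the knockout-labelled libraries (log2 1.11, SE 0.15, limma adjusted p = 0.0131), and was lost without control replicate 2 (0.0960). The zinc-finger gene Zfp945, the secreted ribonuclease gene Rnaset2b and the radial spoke gene Rsph3b fell by 0.80, 0.65 and 0.70 log2 units, with the groups apart in each (limma adjusted p = 0.0228, 0.0449 and 0.0449). The calls of Rnaset2b and Rsph3b were lost whichever library was left out, with limma adjusted p between 0.0779 and 0.156 and between 0.0824 and 0.156, and that of Zfp945 was lost without control replicate 1 (0.0705), control replicate 2 (0.0890), control replicate 3 (0.104), knockout replicate 1 (0.0672) or knockout replicate 3 (0.0808). Rnaset2b and Rsph3b each have a near-identical copy, between which reads can be split.

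**Figure D2:**
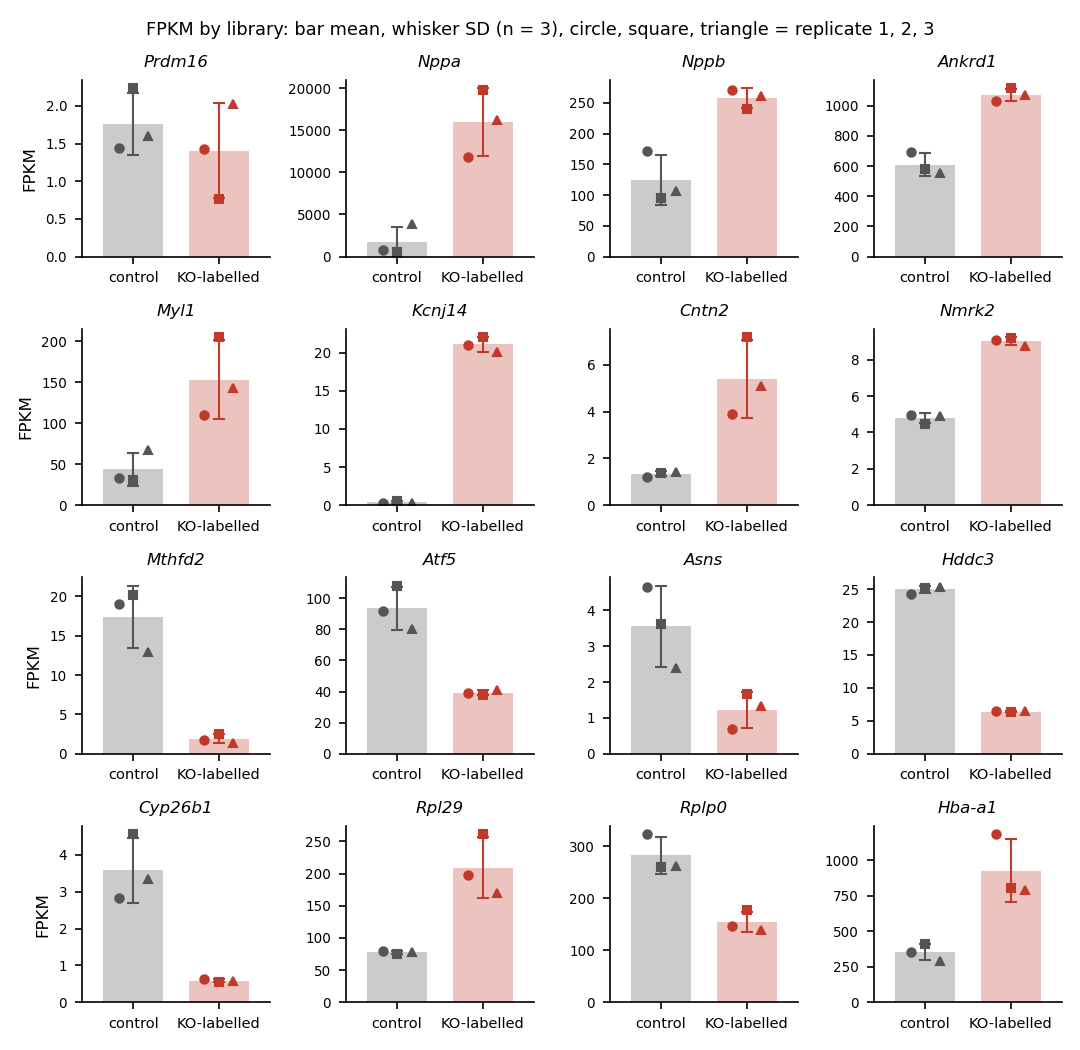
FPKM of 16 genes in each library, with bars for the mean and whiskers for 1 SD over 3 libraries per label; circles, squares and triangles are replicates 1, 2 and 3, and each panel has its own linear axis from 0. Prdm16 overlaps between labels, while the 3 knockout-labelled values of Kcnj14, Hddc3 and Cyp26b1 lie close together and far from the controls.

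Among the genes of cardiac stress, Nppa, the precursor of atrial natriuretic peptide, stood at 749, 561 and 3825 FPKM in the controls against 11824, 19851 and 16224 FPKM in the knockout-labelled libraries. Every knockout-labelled value was above every control, and control replicate 3 stood several-fold above the other controls (log2 3.74, SE 0.62, limma adjusted p = 0.0402). The call was lost without control replicate 1 (0.107), control replicate 2 (0.187), knockout replicate 2 (0.0750) or knockout replicate 3 (0.0602), limma adjusted p in brackets. It held after TPM rescaling. It was lost after median-of-ratios rescaling, with robust limma, a replicate block or no filter, and without the 2 outlying libraries together. The noncoding gene Gm13054, which overlaps Nppa on the opposite strand, stood at 0.0928, 0.320 and 0.788 FPKM in the controls against 3.22, 6.37 and 3.68 FPKM in the knockout-labelled libraries and rose too (1.94). Ankrd1, an ankyrin repeat protein of the sarcomere and nucleus that responds to stretch, stood at 696, 583 and 551 FPKM in the controls against 1033, 1115 and 1071 FPKM in the knockout-labelled libraries (log2 0.82, SE 0.14, limma adjusted p = 0.0449). Its groups were apart, and the call was lost whichever library was left out (limma adjusted p from 0.057 to 0.191). TPM and median-of-ratios rescaling each lost it as well. Nppb, the precursor of brain natriuretic peptide, stood at 171, 94.5 and 107 FPKM in the controls against 272, 240.5 and 261 FPKM in the knockout-labelled libraries, with the groups apart, and did not pass (log2 1.09, SE 0.21, limma adjusted p = 0.0620). Of 18 fetal and stress genes, 13 lay above 0 and 5 below, with a median of 0.36 (0.26 without the 2 outlying libraries), and 7 were apart upwards (38.9%, against 20.1% of all tested genes). In this list 2 genes passed (0.746% of all tested genes did), and 3 of 18 did after TPM rescaling, where 134 of all 13275 genes tested did. After median-of-ratios rescaling, or without the 2 outlying libraries, 0 passed.

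Of 20 atrial markers tested, 19 lay above 0 and 1 below, with a median of 1.43 (0.47 without control replicate 2 and knockout replicate 2), Nppa passed, and 5 were apart upwards (25.0%, against 20.1% of all tested genes). After TPM rescaling 6 of the 20 passed, where 134 of all 13275 genes tested did. After median-of-ratios rescaling, or without those 2 libraries, 0 passed. The 21 markers in the table summed to 1401, 1095 and 6900 FPKM in the controls and to 12932, 30051 and 20124 FPKM in the knockout-labelled libraries. Control replicate 3 was the highest control and knockout replicate 1 the lowest knockout-labelled library, as for Nppa, which is one of the 21 and makes up most of the sum in every knockout-labelled library. Mybphl, a myosin-binding protein of atrial muscle, overlapped between labels at 5.96, 4.29 and 62.4 FPKM in the controls against 50.4, 208 and 129.6 FPKM in the knockout-labelled libraries, and so did the atrial kinase gene Sbk2 at 3.16, 4.88 and 19.5 FPKM in the controls against 15.5, 44.4 and 38.1 FPKM in the knockout-labelled libraries. Ventricular markers summed to between 14647 and 19561 FPKM in the controls and between 17992 and 20189 FPKM in the knockout-labelled libraries, with 2 of 11 above 0, a median of −0.10, and no gene at an adjusted or unadjusted p under 0.05 by limma. In bulk tissue, more atrial muscle and more RNA per cell cannot be told apart, and the part of the atrial markers in the rise of Nppa was not tested.

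In the sarcomere list Myl1, a fast-muscle and atrial myosin light chain, rose, at 33.4, 30.2 and 67.2 FPKM in the controls against 110.1, 205 and 144 FPKM in the knockout-labelled libraries (log2 1.83, SE 0.32, limma adjusted p = 0.0449). Its values followed the order of the atrial markers, with control replicate 3 highest among controls and knockout replicate 2 highest of all. The call was lost without control replicate 1 (0.121), control replicate 2 (0.201), knockout replicate 2 (0.0750) or knockout replicate 3 (0.0706). It was also lost after median-of-ratios rescaling, and held after TPM rescaling. Of the other 34 sarcomere genes tested none passed. Tcap, which caps titin at the Z-disc, stood at 1423, 1568 and 1284 FPKM in the controls against 2031, 2581 and 2129.8 FPKM in the knockout-labelled libraries (log2 0.65, SE 0.16, limma adjusted p = 0.118), Tnni3, the cardiac inhibitory troponin, at 5626, 5236 and 4755 FPKM in the controls against 6926, 9503 and 6641 FPKM in the knockout-labelled libraries (log2 0.55, SE 0.19, limma adjusted p = 0.200), and Myh7, the slow myosin heavy chain, at 10.3, 8.14 and 5.16 FPKM in the controls against 16.6, 11.9 and 19.7 FPKM in the knockout-labelled libraries (log2 0.96, SE 0.24, limma adjusted p = 0.122). The 35 had a median of 0.14 with 24 above 0, and 0.04 with 21 above 0 after either rescaling. The 8 skeletal muscle markers were all above 0 (median 0.61), with Myl1 called, and Casq1, the calcium store protein of skeletal muscle, was apart without passing (log2 0.93, SE 0.17, limma adjusted p = 0.0542).

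Several rises concerned small-molecule metabolism and secretion. Bcat2, the mitochondrial enzyme that starts the breakdown of branched-chain amino acids, stood at 57.4, 56.5 and 46.4 FPKM in the controls against 107, 108 and 95.9 FPKM in the knockout-labelled libraries (log2 0.94, SE 0.13, limma adjusted p = 0.0159), with the groups apart. The call was lost without control replicate 2 (0.0923), control replicate 3 (0.0620) or knockout replicate 1 (0.0621). Nmrk2, a muscle kinase that makes NAD from nicotinamide riboside, stood at 4.94, 4.46 and 4.93 FPKM in the controls against 9.07, 9.22 and 8.78 FPKM in the knockout-labelled libraries (log2 0.80, SE 0.11, limma adjusted p = 0.0133), with both labels tight and apart, and was lost without control replicate 2 (0.0822), control replicate 3 (0.0636) or knockout replicate 1 (0.0581). TPM rescaling lost the calls of both Bcat2 and Nmrk2. Scd4, a stearoyl-CoA desaturase of heart, rose as well (log2 1.51, SE 0.18, limma adjusted p = 0.0104) and was lost without control replicate 2 (0.0822) or control replicate 3 (0.0580). Enho, which encodes the peptide adropin, stood at 7.61, 8.58 and 9.78 FPKM in the controls against 19.4, 23.9 and 17.9 FPKM in the knockout-labelled libraries (log2 1.14, SE 0.14, limma adjusted p = 0.0124) and was lost without control replicate 2 (0.0937). The lipoxygenase genes Alox5 and Alox8, which oxidise polyunsaturated fatty acids, gave 1.01 and 1.19 (limma adjusted p = 0.00985 and 0.0376). Alox5 was lost without control replicate 3 (0.050), and Alox8, at 0.0926, 0.0188 and 0.645 FPKM in the controls, without control replicate 1 (0.0959) or control replicate 2 (0.164). Without any 1 knockout-labelled library Alox8 averaged under 1 FPKM and was not tested. None of the other 22 genes of branched-chain amino acid and ketone breakdown, none of 46 fatty acid oxidation genes and none of 23 glycolytic genes passed, with medians of 0.02, 0.02 and 0.04, each of which lay between −0.08 and −0.06 after rescaling, and at an unadjusted p under 0.05 there were 3 fatty acid oxidation genes and 1 glycolytic gene.

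Genes of trafficking, adhesion and scaffolding were among the calls that held without any 1 library. Ush1c, the scaffold protein harmonin, stood at 0.637, 0.898 and 0.826 FPKM in the controls against 4.46, 3.91 and 5.22 FPKM in the knockout-labelled libraries (log2 1.63, SE 0.14, limma adjusted p = 0.00146). Lrrc4b, a leucine-rich synaptic adhesion protein, stood at 5.23, 6.51 and 5.32 FPKM in the controls against 19.2, 14.7 and 19.0 FPKM in the knockout-labelled libraries (log2 1.48, SE 0.14, limma adjusted p = 0.00440). Vps45, which guides vesicle fusion, stood at 7.78, 5.79 and 8.58 FPKM in the controls against 18.3, 17.2 and 16.7 FPKM in the knockout-labelled libraries (log2 1.15, SE 0.15, limma adjusted p = 0.0124). In each of these 3 genes the groups were apart by more than the range within either label. The Vps45 call was lost after median-of-ratios rescaling, with no filter or a replicate block, and without the 2 outlying libraries together. That of Lrrc4b was lost with no filter. Klk1b22, a kallikrein protease of a family of near-identical genes, was listed at 0 in control replicates 1 and 3 and stood at 0.101 FPKM in control replicate 2, against 3.01, 2.83 and 2.28 FPKM in the knockout-labelled libraries (log2 1.84, SE 0.14, limma adjusted p = 0.000982).

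Nrtn, the neurotrophic ligand neurturin, stood at 34.0, 31.3 and 36.9 FPKM in the controls against 87.7, 220.1 and 103 FPKM in the knockout-labelled libraries. The controls were close together and knockout replicate 2 was more than 2 times the other knockout-labelled values (log2 1.85, SE 0.30, limma adjusted p = 0.0360). The call was lost without control replicate 1 (0.0905), control replicate 2 (0.195) or control replicate 3 (0.144), and after median-of-ratios rescaling. Of 13 neurotrophic ligand and receptor genes tested, Nrtn rose and Ephb1 fell (5 above 0, 8 below). Other rises at lower levels were those of Syn2, a synaptic vesicle protein (1.11), Cpxm2, a secreted carboxypeptidase-like protein (1.04), Tmem158, a membrane protein induced by Ras (1.20), Car11, a carbonic anhydrase-related protein (0.92), and the vacuolar proton pump gene Atp6v0e2 (1.26). Cpxm2 overlaps Fgfr2. The limma adjusted p values of these 5 were 0.0447, 0.0158, 0.0131, 0.0132 and 0.0158, and each was lost without control replicate 2 (between 0.089 and 0.179) and without control replicate 3 (between 0.05 and 0.141). Atp6v0e2 was also lost without control replicate 1 (0.0548), and Syn2 without control replicate 1 (0.115), knockout replicate 2 (0.0717) or knockout replicate 3 (0.0860). Median-of-ratios rescaling lost the calls of Cpxm2 and Syn2.

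Other protein-coding calls were rises as well. Acp1, a low-molecular-weight phosphatase, stood at 2.41, 1.73 and 1.87 FPKM in the controls against 5.38, 6.35 and 5.55 FPKM in the knockout-labelled libraries (log2 1.17, SE 0.13, limma adjusted p = 0.00892), and was lost without control replicate 2 (0.0511) or control replicate 3 (0.050). Trnp1, a nuclear protein of neural progenitors, stood at 1.47, 1.59 and 1.42 FPKM in the controls against 3.71, 4.01 and 3.72 FPKM in the knockout-labelled libraries (log2 0.95, SE 0.11, limma adjusted p = 0.00985), and was lost without control replicate 3 (0.0522). Morf4l1, a chromatin reader of histone acetyltransferase complexes, stood at 6.94, 6.84 and 6.16 FPKM in the controls against 13.1, 16.2 and 12.6 FPKM in the knockout-labelled libraries (log2 0.97, SE 0.13, limma adjusted p = 0.0131), and was lost without control replicate 2 (0.0923) or control replicate 3 (0.0766). The controls were tight in each of these genes and the groups were apart. Atp6ap1l, related to a proton pump subunit, gave 1.11 and was lost without control replicate 2 (0.123) or control replicate 3 (0.116). Oscp1 lay just inside the threshold (1.31, limma adjusted p = 0.0469) and was lost without any library but knockout replicate 3 (0.0921 to 0.194), and Pdzrn3, Tma7, Cda and Dnph1 just outside it (0.0502, 0.0509, 0.0516 and 0.0517).

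Further rises were lost in 4 or more of the 6 fits that left out 1 library, with limma adjusted p between 0.0505 and 0.195 in those fits. Mapk12, the gamma form of p38 kinase, gave 0.90, Rgs12, which dampens G protein signalling, 0.89, and Glo1, which detoxifies methylglyoxal, 0.70 (limma adjusted p = 0.0402, 0.0352 and 0.0449). Snrpa1, a protein of the U2 splicing particle, gave 0.77, Rbm19, of ribosome assembly, 0.86, Sdf2l1, of the endoplasmic reticulum, 0.99, and Ift81, of transport within cilia, 0.90. Their limma adjusted p values were 0.0449, 0.0403, 0.0397 and 0.0449. In the same class were Rtl8b (1.01), Rftn1, a lipid raft protein (0.70), Nat8f1 (0.69), the lymphotoxin gene Ltb (0.87), Arhgap9 (0.87), the neutrophil protein gene Lcn2 (0.99) and the immunoglobulin light chain segments Igkv1-135 (1.30) and Igkv6-25 (1.34), which belong to families of near-identical segments. Ear2, a ribonuclease of eosinophils in a family of near-identical genes, stood at 0.617, 0.859 and 0.472 FPKM in the controls against 2.78, 2.28 and 2.27 FPKM in the knockout-labelled libraries and was lost without control replicate 3 (0.0716). Further falls were those of 2210407C18Rik (−1.02), 2610035D17Rik (−1.08) and the pseudogene Gm10086 (−1.36), and the noncoding or unannotated genes Gm30735 (1.08), 1810044D09Rik (0.63) and Gm11469 (1.49) rose. Nmrk2, Enho, Acp1, Syn2, Nat8f1, Oscp1, Glo1 and Them6 overlap a gene on the opposite strand, so that their values can hold reads of that gene.

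The cytosolic ribosomal proteins gave calls in both directions. Rpl29 stood at 79.9, 75.7 and 77.6 FPKM in the controls against 197, 261 and 169.9 FPKM in the knockout-labelled libraries (log2 1.40, SE 0.17, limma adjusted p = 0.00985), Rpl34 at 75.1, 46.6 and 64.3 FPKM in the controls against 162, 217 and 148 FPKM in the knockout-labelled libraries (log2 1.50, SE 0.21, limma adjusted p = 0.0158) and Rps7 at 3.67, 2.81 and 2.12 FPKM in the controls against 9.39, 10.1 and 7.69 FPKM in the knockout-labelled libraries (log2 1.39, SE 0.17, limma adjusted p = 0.0104). All 3 had the groups apart, with knockout replicate 2 highest. Rplp0, a protein of the ribosomal stalk, fell, at 323, 261 and 263 FPKM in the controls against 148, 177 and 140.0 FPKM in the knockout-labelled libraries (log2 −0.86, SE 0.15, limma adjusted p = 0.0449). Each call was lost without 1 or more libraries: Rpl29 without control replicate 2 (0.0923) or control replicate 3 (0.0560), Rpl34 without control replicate 2 (0.0937) or control replicate 3 (0.0846), Rps7 without control replicate 2 (0.0923) or control replicate 3 (0.050), and Rplp0 without control replicate 1 (0.122), control replicate 2 (0.153), control replicate 3 (0.116), knockout replicate 1 (0.114) or knockout replicate 3 (0.120). Rpl34 was also lost after median-of-ratios rescaling. Of the 77 ribosomal protein genes tested, 74 lay above 0 and 3 below (median 0.46, 0.36 after either rescaling and 0.25 without the 2 outlying libraries). Their summed level was 12249, 9678 and 10635 FPKM in the controls and 13924, 18420 and 12975 FPKM in the knockout-labelled libraries.

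Processed pseudogenes, which are copies of spliced messenger RNAs, made up 14 of the 91 calls, 13 higher and 1 lower, out of 913 tested (1.53%, against 0.631% of 10780 protein-coding genes). Of the 913, 639 lay above 0 (median 0.18). Their values can share reads with parent genes, and the same holds between ribosomal protein genes and their copies. Gm9493 and Rps2-ps6 are both of this class and held without any 1 library, at 10.9, 12.3 and 11.7 FPKM in the controls against 42.7, 51.0 and 43.0 FPKM in the knockout-labelled libraries and 8.62, 6.81 and 8.85 FPKM in the controls against 19.6, 18.0 and 19.4 FPKM in the knockout-labelled libraries.

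The nuclear genes of the respiratory chain lay above 0 together and none of them passed limma at the adjusted threshold, while 20 of complex I, 11 of complexes II, III and IV and 6 of ATP synthase had an unadjusted p under 0.05 (18.2% of all tested genes). All 37 tested subunits of complex I, which oxidises NADH, were above 0 (median 0.40, and 0.23 without the 2 outlying libraries), and 24 were apart upwards (64.9%, against 20.1% of all tested genes). After TPM or median-of-ratios rescaling 35 of 37 were above 0, with a median of 0.30 or 0.29. Complexes II, III and IV had 27 of 28 above 0 (median 0.31) and ATP synthase 16 of 17 (median 0.32), with 15 and 11 apart upwards (53.6% and 64.7%). Ndufa11, an accessory subunit, stood at 70.6, 59.1 and 58.9 FPKM in the controls against 85.8, 107 and 83.7 FPKM in the knockout-labelled libraries (log2 0.54, SE 0.14, limma adjusted p = 0.135), Cox7c, of cytochrome oxidase, at 284, 263 and 242 FPKM in the controls against 347, 494 and 341 FPKM in the knockout-labelled libraries (log2 0.56, SE 0.17, limma adjusted p = 0.170) and Atp5e, the epsilon subunit of ATP synthase, at 1235, 746 and 969 FPKM in the controls against 1590.5, 2341 and 1416 FPKM in the knockout-labelled libraries (log2 0.85, SE 0.24, limma adjusted p = 0.151). In each the highest value was that of knockout replicate 2. Mitochondrial ribosomal proteins had 72 of 79 above 0 (median 0.25) and complex I assembly factors 10 of 16 (median 0.10). Genes of the mitochondrial genome had 5 of 13 above 0 (median −0.26), and the TCA cycle 10 of 34 (median −0.15), with no calls and 1 gene at an unadjusted p under 0.05 in each. Cs, citrate synthase, overlapped between labels at 388, 487 and 331 FPKM in the controls against 324, 245 and 347 FPKM in the knockout-labelled libraries, with control replicate 2 highest and knockout replicate 2 lowest.

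**Figure D3:**
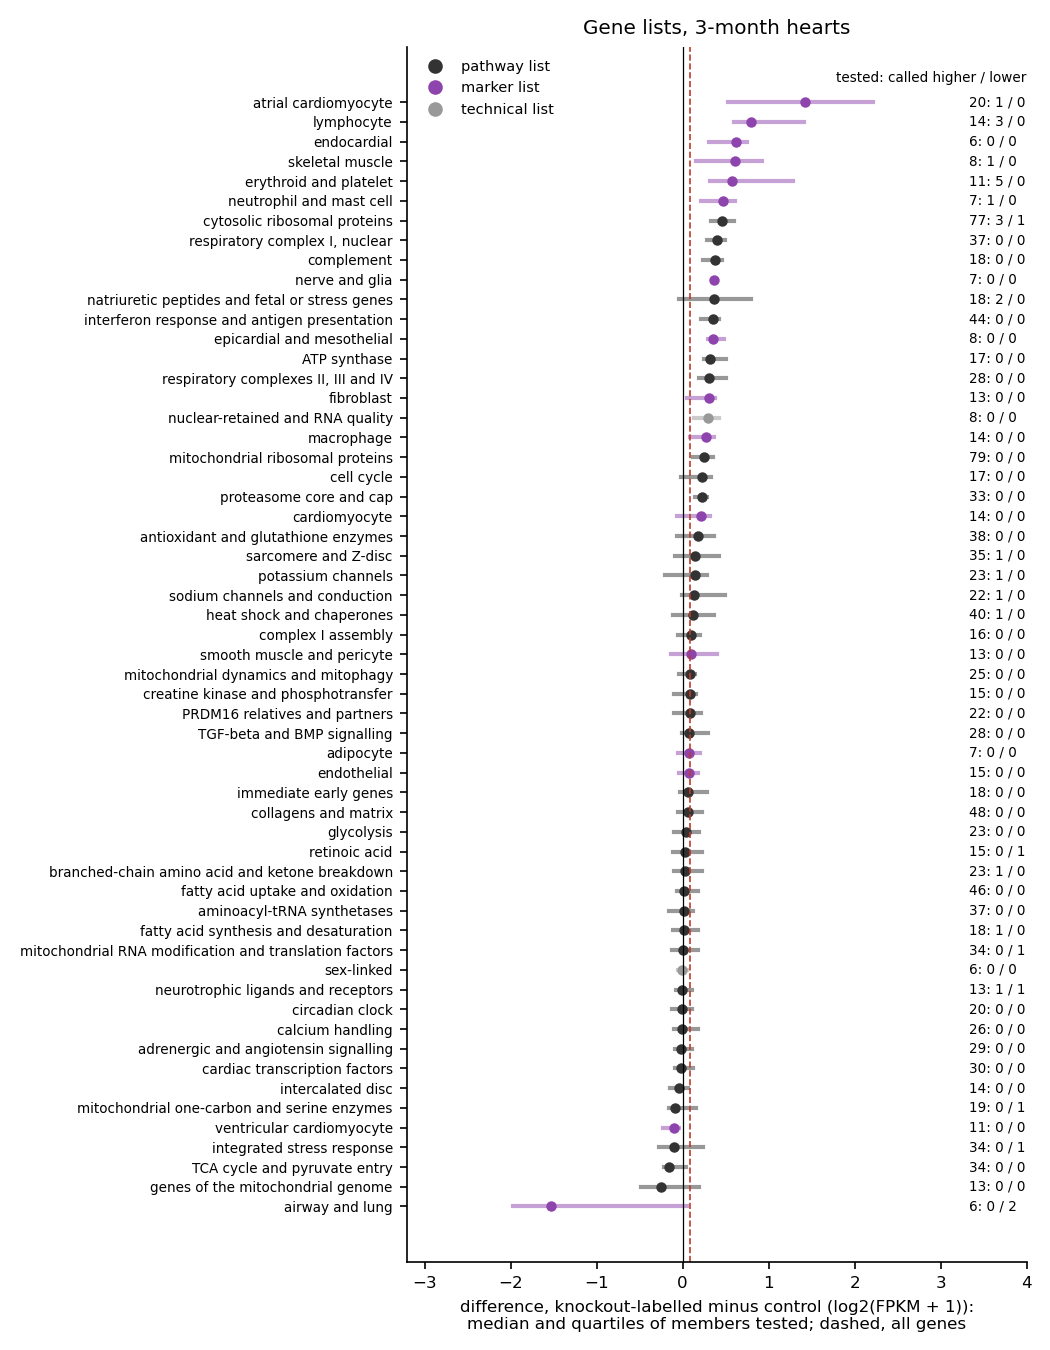
Points are the median difference, knockout-labelled minus control on the log2(FPKM + 1) scale, over the tested members of each gene list, lines run between the quartiles, and the dashed line is the median of all 12200 genes (0.09). Numbers at the right give the members tested and those called higher and lower; atrial markers stand at the top (1.43) and airway and lung genes at the bottom (−1.53).

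Differences also followed gene length. With the protein-coding genes cut into 5 classes of equal size by exonic length, the median difference was 0.28 in the shortest (204 to 2437 bases), then 0.13, 0.06, 0.01 and −0.03 in the longest (7571 bases or more). Genes above 0 made up 87.6% of the shortest class and 43.5% of the longest, and 34 of the 68 protein-coding calls were in the shortest. Knockout replicate 2 deviated from the 6-library mean by a median of 0.32 in the shortest class and by −0.04 in the longest, and control replicate 2 by −0.15 and 0.15. Of the lists with most members above 0, some hold short genes, with a median exonic length of 1569 bases for complex I, 1234 for complexes II, III and IV and 1770 for cytosolic ribosomal proteins. Red cell and platelet genes (1083) and lymphocyte markers (1568) had medians in the shortest class too. The medians of proteasome subunits (2800 bases) and of interferon and antigen presentation genes (3621 bases) lay in the class of 2438 to 3699 bases. In that class 75.2% of genes were above 0. The class of 3700 to 5219 bases (62.5% above 0) held the medians of atrial markers (3964) and fibroblast markers (4743). It also held those of the TCA cycle (4068) and the folate and serine enzymes (4254), which had most members below 0. The part of length in these medians was not tested.

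**Figure D4:**
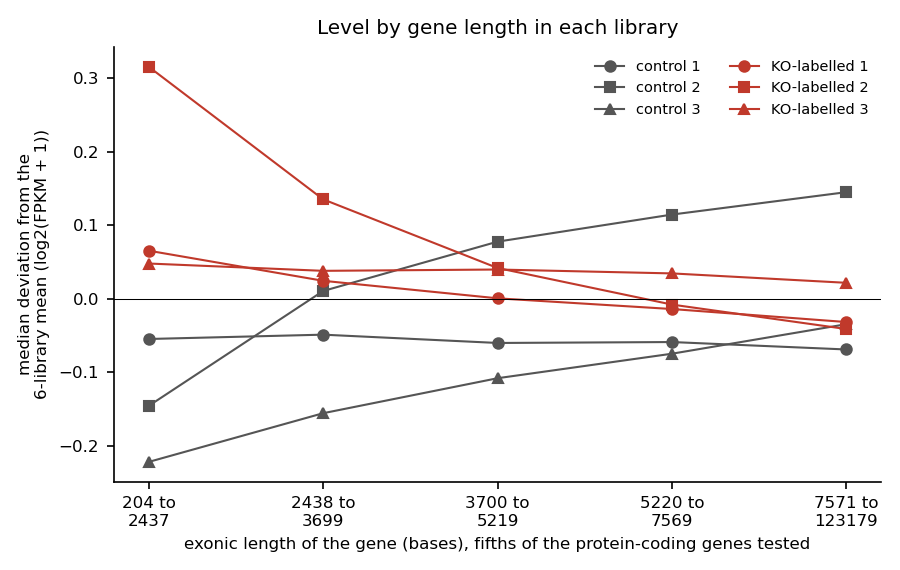
The horizontal axis gives 5 equal classes of protein-coding genes by exonic length in bases and the vertical axis each library's median deviation from the mean of the 6 libraries on the log2(FPKM + 1) scale. Knockout-labelled replicate 2 runs from 0.32 to −0.04 and control replicate 2 from −0.15 to 0.15, while knockout-labelled replicates 1 and 3 stay between −0.03 and 0.07.

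Red cell genes were among the rises. Of 11 red cell and platelet genes tested, 5 rose (0.623% of all tested genes did), 10 lay above 0, and the median was 0.58. Their median length lay in the shortest length class, where 87.6% of protein-coding genes were above 0. The 5 were the haemoglobin chains Hba-a1, Hba-a2, Hbb-bs and Hbb-bt and the haem synthesis enzyme Alas2. After TPM rescaling 5 of 13 tested genes of this list passed, where 134 of all 13275 did. After median-of-ratios rescaling 1 of 11 passed, Hba-a2, where 59 of all 12189 did. Without control replicate 2 and knockout replicate 2, 0 passed. The list summed to between 896 and 1203 FPKM in the controls and between 2175 and 3204 FPKM in the knockout-labelled libraries. Hba-a1 stood at 358, 412 and 295 FPKM in the controls against 1185, 806 and 794 FPKM in the knockout-labelled libraries (log2 1.37, SE 0.20, limma adjusted p = 0.0212) and Alas2 at 6.20, 8.66 and 5.40 FPKM in the controls against 21.2, 20.5 and 12.4 FPKM in the knockout-labelled libraries (log2 1.28, SE 0.22, limma adjusted p = 0.0449). Every knockout-labelled value lay above every control in both, with knockout replicate 1 highest. The haemoglobin chains are pairs of near-identical genes. The Hba-a1 call was lost without control replicate 1 (0.0590), control replicate 2 (0.0960) or control replicate 3 (0.0962), that of Hba-a2 without control replicate 1 (0.0681), control replicate 2 (0.0689) or control replicate 3 (0.104), that of Hbb-bs without control replicate 2 (0.189), control replicate 3 (0.144) or knockout replicate 1 (0.0756), that of Hbb-bt without control replicate 2 (0.153) or control replicate 3 (0.114) and that of Alas2 without control replicate 1 (0.122), control replicate 2 (0.121), control replicate 3 (0.190), knockout replicate 1 (0.0899) or knockout replicate 2 (0.0933).

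Of 14 lymphocyte markers tested, Nkg7, a granule protein of killer cells, Gzma, a granzyme, and Igha, the immunoglobulin A heavy chain, rose (0.623% of all tested genes did). All 14 lay above 0, and 13 were apart upwards (92.9%, against 20.1% of all tested genes). The median length of the markers lay in the shortest length class, where 87.6% of protein-coding genes were above 0. Nkg7 stood at 0.717, 0.339 and 0.309 FPKM in the controls against 3.17, 4.80 and 2.62 FPKM in the knockout-labelled libraries (log2 1.62, SE 0.20, limma adjusted p = 0.0104), and Igha at 6.75, 7.13 and 7.28 FPKM in the controls against 17.7, 44.9 and 21.6 FPKM in the knockout-labelled libraries (log2 1.74, SE 0.29, limma adjusted p = 0.0397). Outside the list, Trbc2, a T cell receptor constant region, stood at 0.535, 0.373 and 0.293 FPKM in the controls against 2.48, 3.40 and 2.33 FPKM in the knockout-labelled libraries (log2 1.41, SE 0.15, limma adjusted p = 0.00849), with the groups apart, and was lost without control replicate 2 (0.0587). The call of Nkg7 was lost without control replicate 2 (0.0937) or control replicate 3 (0.0680), that of Igha without control replicate 1 (0.103), control replicate 2 (0.194) or control replicate 3 (0.158) and that of Gzma without control replicate 1 (0.0902), control replicate 2 (0.158), control replicate 3 (0.167), knockout replicate 2 (0.0577) or knockout replicate 3 (0.0525). The lymphocyte list summed to 566, 460 and 410 FPKM in the controls and to 636, 1142 and 635 FPKM in the knockout-labelled libraries, so knockout replicate 2 stood apart. After TPM rescaling 6 of 15 tested genes of this list passed, where 134 of all 13275 did. After median-of-ratios rescaling 1 of 14 passed, Nkg7, where 59 of all 12189 did. Without the 2 outlying libraries 2 of 14 passed, where 22 of all 12101 did. Macrophage and fibroblast markers had medians of 0.27 and 0.31 with no calls and 1 gene each at an unadjusted p under 0.05, and the medians were −0.05 and −0.04 without the 2 outlying libraries. Interferon and antigen presentation genes had 42 of 44 above 0 (median 0.36), 14 at an unadjusted p under 0.05 and no calls, and a median of 0.07 without those libraries. The part of blood and immune cells in other differences was not tested.

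The largest fall was that of an airway gene. Scgb1a1, the secretoglobin of club cells, stood at 11.1, 26.8 and 10.6 FPKM in the controls against 0.146, 0.319 and 0.151 FPKM in the knockout-labelled libraries (log2 −3.71, SE 0.30, limma adjusted p = 0.00129), and Bpifa1, a secreted defence protein of the upper airway, at 2.47, 5.50 and 2.14 FPKM in the controls and 0.124 FPKM in knockout replicate 1, and was listed at 0 in the other 2 (−1.99, SE 0.25, limma adjusted p = 0.0124). Scgb3a2, of the same cells, was listed at 0 in all 3 knockout-labelled libraries and reached 1.79, 6.29 and 1.52 FPKM in the controls, without passing (limma adjusted p = 0.0543). Control replicate 2 was highest in all 3 genes. Hopx, a homeodomain gene that heart muscle also expresses, was higher in all 3 knockout-labelled libraries (0.47, limma adjusted p = 0.160). Of the 6 airway and lung genes tested, 2 fell and 4 lay below 0 (median −1.53, and −0.73 without the 2 outlying libraries). The list summed to 269, 293 and 218 FPKM in the controls and to 313, 343 and 310 FPKM in the knockout-labelled libraries, most of it Hopx. The alveolar surfactant genes Sftpc and Sftpd were listed at 0 in all 6 libraries. The part of airway tissue in other differences was not tested.

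Over all tested genes 0.746% were called. Chromosome 7 held 14 of the calls among 912 tested genes (1.54%) and chromosome 6 held 11 among 646 (1.70%). Chromosome 8 held 1 among 583 (0.172%) and chromosome 18 held 0 among 309. With gaps of at most 1 Mb, 23 of the 90 calls with a position fell into 8 runs. Whether genes picked at random would form as many runs was not tested. The longest held Nkg7, Klk1b22, Lrrc4b, Atf5, Bcat2, Car11, Kcnj14 and Ush1c on chromosome 7, 7 higher and 1 lower. Within 1 Mb of Kcnj14 there were 62 tested genes, with a median of 0.19, of which 4 were called (0.746% of all tested genes were). Groups were apart in 24 of the 62 (38.7%, against 24.7% of all tested genes). Slc17a7, a vesicular glutamate transporter, was higher there without passing (log2 1.34, SE 0.29, limma adjusted p = 0.0827), and Mamstr, a coactivator of the MEF2 factors, was lower (log2 −0.77, SE 0.14, limma adjusted p = 0.0543). Within 1 Mb of Hddc3, also on chromosome 7, 0 of 33 neighbours were called and 7 were apart (21.2%). Around Mthfd2 0 of 29 were called and 5 apart (17.2%), and around Prdm16 itself, on chromosome 4 from 154316125 to 154636873, 0 of 17 were called and 4 apart (23.5%). Around Rnaset2b 2 of 18 were called and 8 apart (44.4%), and around Nppa 1 of 22 was called and 8 apart (36.4%). Around Acp1 0 of 9 were called and 1 apart (11.1%).

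**Figure D5:**
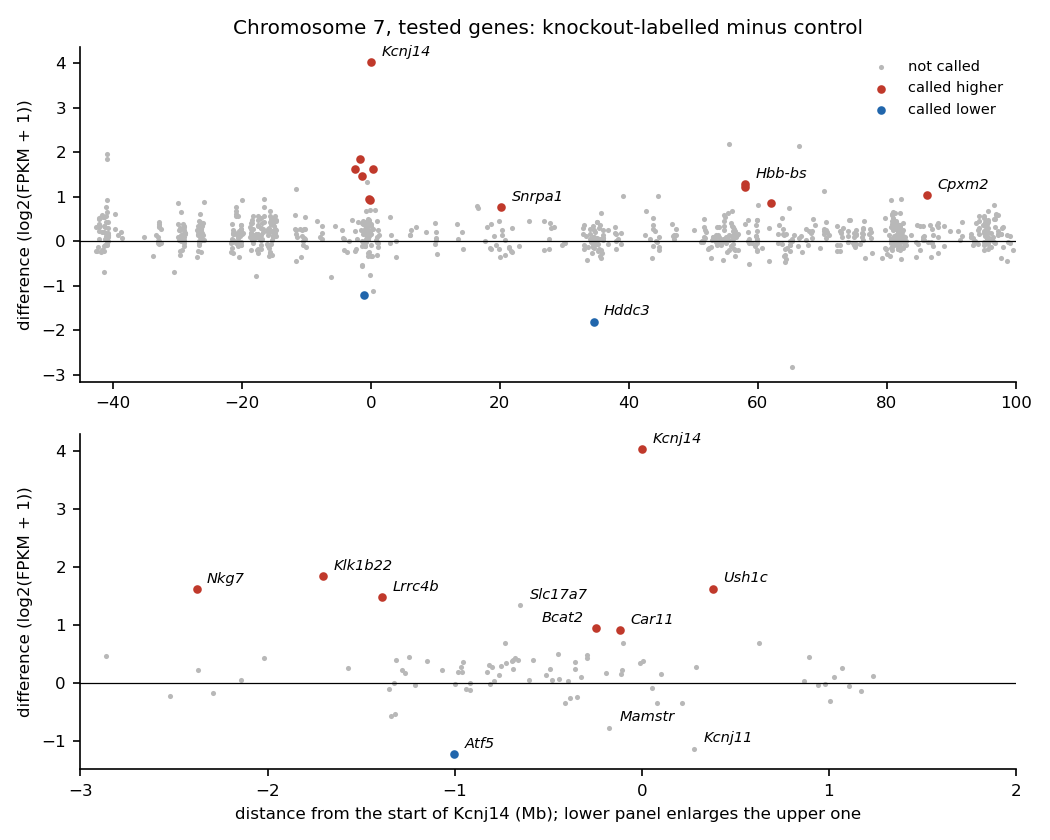
Difference of each tested gene on chromosome 7, knockout-labelled minus control on the log2(FPKM + 1) scale, against the distance of its start from that of Kcnj14 in Mb; the lower panel enlarges the stretch around Kcnj14. Red and blue points are called genes; the 8 calls of the run lie among genes whose differences are mostly under 1 log2 unit, and Hddc3 lies alone.

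A further run lay on chromosome 17 from 6430112 to 7011299 with Dynlt1b, a dynein light chain, higher and Rsph3b and Rnaset2b lower among 8 tested genes, 5 of them with groups apart (24.7% of all tested genes were). The other runs were pairs: Colec11 with Rps7, Them6 with Lypd2, Bpifa1 with Cdk5rap1, Nppa with Gm13054, and each pair of haemoglobin genes. Dynlt1b (0.72), one of several near-identical copies, and Colec11, a collectin (0.75), were lost whichever library was left out (limma adjusted p from 0.0701 to 0.155 and from 0.0538 to 0.123). Them6 stood at 4.78, 5.47 and 4.23 FPKM in the controls against 10.9, 13.4 and 11.4 FPKM in the knockout-labelled libraries (log2 1.15, SE 0.13, limma adjusted p = 0.00955) and was lost without control replicate 3 (0.050). Lypd2, its neighbour, gave 1.80 (limma adjusted p = 0.0449) and was lost without control replicate 1 (0.122), control replicate 2 (0.0960), control replicate 3 (0.191) or knockout replicate 2 (0.0577).

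Of the 57 lists with at least 3 tested genes, 44 had a median above 0 and 38 had no call. Lists of the regulator's own relatives and of muscle identity were among the latter. PRDM16 relatives and partners had 14 of 22 above 0 (median 0.08, and 0.00 after median-of-ratios rescaling), led by the cardiac factor Tbx5 at 4.93, 6.68 and 8.62 FPKM in the controls against 7.09, 13.9 and 10.5 FPKM in the knockout-labelled libraries (log2 0.56, SE 0.24, limma adjusted p = 0.271), whose ranges overlapped. Cardiac transcription factors had 12 of 30 above 0 (median −0.02), calcium handling genes 12 of 26 (median −0.01), collagens and matrix 33 of 48 (median 0.06, and −0.02 after either rescaling) and TGF-beta and BMP signalling 21 of 28 (median 0.08, and −0.02 after either). At an unadjusted p under 0.05 there were 1, 4, 5, 4 and 3 genes in these lists. Thbs4, a matrix protein of stressed heart, was apart upwards without passing (log2 0.80, SE 0.18, limma adjusted p = 0.0987). Proteasome subunits had 30 of 33 above 0 (median 0.22) and antioxidant and glutathione enzymes 28 of 38 (median 0.18), with 2 and 13 at an unadjusted p under 0.05. Both medians stayed above 0 after either rescaling. Aminoacyl-tRNA synthetases, several of which ATF4 is known to induce, had 20 of 37 above 0 (median 0.01) and 2 at an unadjusted p under 0.05. Complement genes had 15 of 18 above 0 (median 0.38, and 0.07 without the 2 outlying libraries) and 4 at an unadjusted p under 0.05, and endocardial markers had 5 of 6 above 0 (median 0.63, and 0.12 without those libraries). Transcripts that stay in the nucleus or report RNA quality had 7 of 8 above 0 (median 0.29), and their part in other differences was not tested.

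The 91 calls were then looked up in the 12-month hearts (2 control and 2 knockout-labelled libraries), which had no part in choosing them. There sex-linked genes differ with the label, with Xist, the RNA of the inactive X chromosome, at 33.1 and 31.0 FPKM in the controls and 0.0911 and 0.0240 FPKM in the knockout-labelled libraries, so genotype and sex-linked expression cannot be told apart. Of the 91, 75 were tested at 12 months and 8 passed, where 52 of 13179 genes passed (0.395%). Of the 63 rises tested, 43 lay above 0 again (68.3%, against 51.5% of all genes tested at that age). In 35 of them both knockout-labelled values were above both controls (55.6%, against 27.3% of all genes tested at that age). Of the 12 falls tested, 2 lay below 0 again (16.7%), those of Hddc3 and Cyp26b1.

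Kcnj14, Ankrd1 and Cpxm2 passed in the same direction at both ages. Kcnj14 stood at 0.234 and 0.236 FPKM in the 12-month controls and 4.87 and 4.71 FPKM in the 12-month knockout-labelled libraries (log2 2.23, limma adjusted p = 0.0328), Ankrd1 at 409.8 and 419 FPKM in the 12-month controls and 1787 and 2313 FPKM in the 12-month knockout-labelled libraries (2.29, 0.0449) and Cpxm2 at 1.27 and 0.864 FPKM in the 12-month controls and 18.5 and 31.0 FPKM in the 12-month knockout-labelled libraries (3.60, 0.0498). Nppa was apart upwards at 3313 and 3234 FPKM in the 12-month controls and 15104 and 11263 FPKM in the 12-month knockout-labelled libraries without passing (1.99, limma adjusted p = 0.0759), and so were Alox8, Syn2, Bcat2, Car11 and Atp6v0e2. Alas2 and the 4 haemoglobin genes passed downwards, opposite to 3 months. Mthfd2 overlapped at 2.52 and 1.73 FPKM in the 12-month controls and 2.20 and 3.25 FPKM in the 12-month knockout-labelled libraries, Hddc3 at 38.8 and 41.1 FPKM in the 12-month controls and 44.1 and 15.6 FPKM in the 12-month knockout-labelled libraries and Lrrc4b at 6.69 and 6.22 FPKM in the 12-month controls and 10.6 and 4.46 FPKM in the 12-month knockout-labelled libraries. How many of the 91 passed at 12 months changed widely with the library left out. Such fits set 2 libraries against 1 and assume that the lone library varies like the others, so their counts are not given.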

How the data were processed

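Poly(A) RNA of mouse hearts at 3 months was sequenced as 6 libraries (3 control, 3 Prdm16 knockout), per the labels' protocols. The authors deposited FPKM per gene for each library in a table by age. Per the submitters' processing notes, the genome was mm10/GRCm38, and the tools, in no stated order, included Cufflinks 2.1.1, STAR 2.5.1b, TopHat2 2.1.0 and FastQC. The sources used here do not describe the counting or its use of strand. FPKM carries no depth, so no counting interval is given, and the precision rests on the spread between libraries.

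Columns were assigned to samples by their names. The 46855 rows (69 repeats of an identifier summed) gave 46786 genes, of which 46297 were found in GENCODE M21 for symbol, biotype, length and position. Genes averaging 1 FPKM or more were tested on log2(FPKM + 1) with limma 3.58.1 (R 4.3.3, intensity trend, 3 against 3, no covariate), with Benjamini-Hochberg adjustment over 12200 genes and calls at an adjusted p under 0.05. On simulated data with known changes, the fit for the 3-month comparison of 12200 genes recovered 28.4% of 67 genes changed 1.5-fold. It recovered 80.6% of 67 changed 2-fold and 95.5% of 66 changed 4-fold, with 3 false calls. These rates describe the simulated data only. Whether they hold for these libraries, where control replicate 2 and knockout replicate 2 stood apart, was not tested. Recovery was not given separately for the 5129 tested genes averaging under 5 FPKM, which include 33 of the 91 calls. The 12-month table (2 against 2) was fitted in the same way on its own. Groups are called apart when every library of one label lies above every library of the other.

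Genes named are Prdm16, the called genes with a full symbol, up to 4 members of lowest p in each list, called genes among the 100 highest, neighbours of called genes, genes at the threshold, genes called at both ages and abundant genes listed at 0. Dhrs3, Trib3, Mybphl, Sbk2, the other holders of the promoter element, the surfactant genes, BC025920, Tfap4, Pycr1, and the Gm, Rik and -ps genes were named after their values were seen. The comparison and the gene lists were chosen with earlier results of these data known. Alternatives were other pseudocounts (0.1 and 5), no filter, a mean of at least 5 FPKM, rescaling to TPM or by median of ratios, limma without trend, robust or with array weights, a replicate block and leaving out each library. Leaving out control replicate 2 with knockout replicate 2, and protein-coding genes alone, were added after the data were seen. Promoter windows are from RefSeq (GRCm38.p6). Where the promoter of a gene, such as Kcnj14, had no entry, none is shown. Permutation used scipy 1.17.1.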

Additional observations from a re-analysis of the deposited data

Results flagged for a closer look

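Genes called at 3 months whose 12-month libraries lay wholly on the other side are given here because every library of each age went the opposite way. The difference between ages was not tested in any of them. Hbb-bs stood at −2.43 at 12 months (log2, knockout-labelled minus control), Hba-a2 at −2.38, Hbb-bt at −2.37, Alas2 at −2.33 and Hba-a1 at −2.30, after rises at 3 months. The smaller opposite values were −0.86 for the chaperone cofactor Sdf2l1, −0.64 for the cytokine Ltb, −0.61 for the kinase Nmrk2, −0.44 for the glyoxalase Glo1 and −0.43 for Nat8f1. The processed pseudogenes Gm9825, Gm8730 and Gm9625 stood at −0.81, −0.32 and −0.11. Of the genes that fell at 3 months, 2610035D17Rik stood at 1.23 at 12 months, Zfp945 at 1.08, Rsph3b at 0.31, Atf5 at 0.28 and Cdk5rap1 at 0.23.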

How the results depend on the processing

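The 91 calls at 3 months became 10 with no filter (of 22996 genes), 59 with median-of-ratios rescaling, 165 with array weights, 29 with a replicate block and 22 without control replicate 2 and knockout replicate 2, and leaving out 1 library gave between 22 and 81. The other settings gave between 61 and 134, within 1.5 times. The 12-month calls among them, 8 in number, became 4 with a replicate block and between 0 and 46 when 1 library was left out. The Prdm16 difference turned from −0.22 to 0.11 without control replicate 2 and knockout replicate 2 and lay between −0.41 and −0.01 when 1 library was left out. Deviations of same-numbered libraries from their label means had correlations of −0.12, −0.46 and −0.14. Deviations within a label sum to 0, and control replicate 2 and knockout replicate 2 stood at opposite ends of the first principal component. The correlations therefore cannot decide whether the number pairs libraries. Atf5 and Cdk5rap1 were among the calls lost with the block. Among 1176 refits of 71 named genes, 709 kept the call and the direction, 467 lost the call and 0 reversed. Of 964 list medians under other settings, 896 moved by less than the spread between replicates and 68 by more. Depth is unknown, exact zeros can be failed estimates, and libraries of 1 label may share an animal.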
